A study of Drosophila melanogaster with 3 samples.

Results

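The microRNA (miRNA) genes of the fly were examined for nearby peaks of Mabi (CG15479) in early embryos. They were taken as every gene on the 7 chromosome arms whose symbol in the Ensembl release 115 annotation begins with mir-, which gave 260 of 17796 genes. Each gene model is a hairpin of 50 to 174 bp, with a median of 92.0 bp. Genes less than 2000 bp apart were joined, which left 206 clusters, of which 180 held a single gene and 26 held the other 80 genes. Chromatin immunoprecipitation and sequencing was run with an anti-GFP antibody on whole Drosophila melanogaster embryos of 0 to 4 h and mixed sex. All embryos came from a transgenic line that stably expresses Mabi fused at its C-terminus to GFP. The 3 biological replicates formed a single group, so values could be compared between replicates and between gene classes, and no test between conditions was possible. The embryos cover several stages and every cell of the animal, and the peaks average over them.

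A miRNA is cut from the hairpin of a longer primary transcript by Drosha and then Dicer, and the mature strand guides an Argonaute protein to messenger RNAs. Pairing rests mainly on the seed, bases 2 to 8 of the mature strand, so genes that share a seed can act on overlapping targets. In the fly embryo, miRNAs made at the onset of zygotic transcription help to remove maternal messenger RNAs. Other miRNAs limit cell death, pattern the Hox segments or mark nerve and muscle lineages. Many hairpins lie in introns of protein-coding genes and are transcribed from the promoter of that host gene, so a peak beside a hairpin may also be a peak beside the host's start site.

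Mature products of the genes that the results below turn on are shown to set their seeds beside each other, with the seed in capitals and each strand written 5′ to 3′. The RefSeq annotation of genome Release 6 (dm6) held all 260 genes at identical coordinates, with 481 mature products and 426 seeds, of which 33 were shared by at least 2 genes. The AUCACAG seed is the most shared of those at genes with a reproducible peak, with 14 genes at 7 separate loci. Reproducible peaks lay beside mir-2c, mir-13a and mir-13b-1, and not beside mir-2a-1, mir-2b-1 or mir-11, whose mature strands carry the same seed. The seeds of mir-279, of the pair mir-4968 and mir-980, of mir-92a and of the Hox miRNAs mir-iab-4 and mir-iab-8 are shown for the same comparison.
mir-2c 3′ arm: uAUCACAGccagcuuugaugggc
mir-13a 3′ arm: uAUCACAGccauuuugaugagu
mir-13b-1 3′ arm: uAUCACAGccauuuugacgagu
mir-2a-1 3′ arm: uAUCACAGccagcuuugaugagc
mir-2b-1 3′ arm: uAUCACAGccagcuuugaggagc
mir-11 3′ arm: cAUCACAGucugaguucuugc
mir-279 3′ arm: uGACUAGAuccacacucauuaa
mir-4968 5′ arm: uAGCUGCCacgguuuguugcuu
mir-980 3′ arm: uAGCUGCCuugugaagggcuua
mir-92a 3′ arm: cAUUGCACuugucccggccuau
mir-iab-4 5′ arm: aCGUAUACugaauguauccuga
mir-iab-8 5′ arm: uUACGUAUacugaagguauaccg

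The authors deposited 5 peak lists on dm6, namely 1 list per replicate, a pooled list and a list of peaks reproducible by the irreproducible discovery rate (IDR). The IDR list held 5049 peaks and each other list 30000. A gene was counted when the summit of a peak, its highest point, lay within 1000 bp of the gene model. The deposited signal has no stated scale, so peaks were ranked within each list, with rank 1 the strongest. IDR peaks keep the pooled signal, with a median of 473 and a highest value of 8663. Read depth is unknown here, and the 3 replicate lists share 1 control.

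Of the 260 miRNA genes, 34 (13.1%) had an IDR summit within 1000 bp, with a 95% Wilson interval of 9.51 to 17.7%. The background share was 21.5% of all genes and 23.6% of protein-coding genes, whose models are longer, with a median of 2164 bp. Among other short noncoding genes the share was 15.2% of 290 tRNA genes and 19.0% of 269 snoRNA genes. Where only the 5′ end of each gene was used, so that length played no part, the share was 13.1% of miRNA genes and 15.5% of all genes. From the 5′ end of a miRNA gene the nearest IDR summit lay a median of 10854 bp away, and from the 5′ end of any gene 10710 bp. Of all arm positions, 6.04% would have had an IDR summit within reach of a hairpin of median length. The miRNA share therefore lay below the shares of all and of protein-coding genes by gene model, near that of tRNA genes, and near that of all genes by 5′ end. Wilson intervals take genes as independent, whereas neighbouring hairpins share peaks, and they do not measure the spread between replicates.

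**Figure D1:**
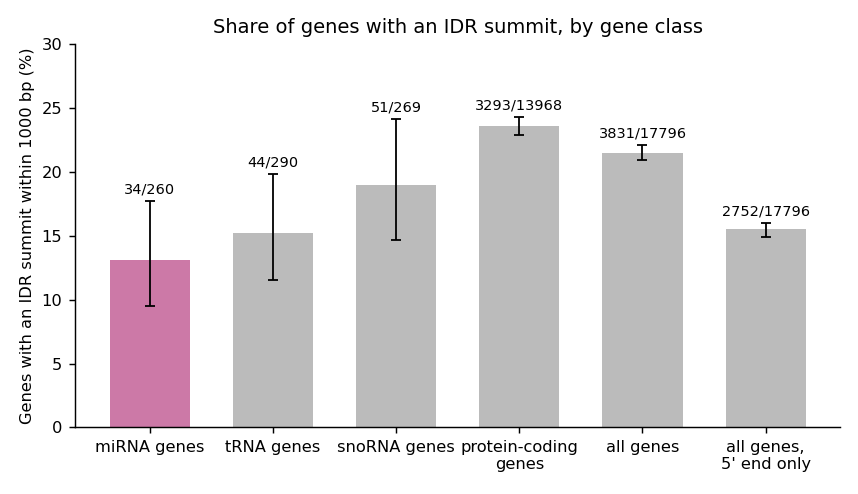
Percent of genes with an IDR summit within 1000 bp, by gene class. Bars are shares of the gene model, or of the 5′ end for the last bar, the lines are 95% Wilson intervals over genes and the labels give counts. The bar for miRNA genes stands at 13.1%, below the 21.5% of all genes.

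The 34 genes formed 25 clusters, or 12.1% of the 206, and their peaks were 34 summits in 28 distinct intervals. A single cluster, mir-309, held 6 of the 34 genes. Without that cluster the share was 28 of 252 genes, or 11.1%. Of the 25 clusters, 20 were single genes and 5 held 2 or more. The strongest peak per cluster had a median signal of 536 and a median rank of 2082 of 5049, so miRNA peaks sat on both sides of the middle of the IDR list.

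In the lists of single replicates, 113, 120 and 121 miRNA genes had a summit within 1000 bp in replicates 1, 2 and 3. These were shares of 43.5%, 46.2% and 46.5%, beside 58.7%, 62.6% and 60.4% of all genes. The pooled list gave 120 genes (46.2%), beside 61.4% of all genes. A summit was present in all 3 replicates at 86 miRNA genes (33.1%), beside 49.7% of all genes, and in none at 107. Summits in 2 replicates and in 1 replicate were found at 29 and 38 genes. The 3 replicates thus differed little in how many miRNA genes they reached, and in every list the miRNA share was below that of all genes. Each replicate list held the same number of peaks, 30000, so similar counts do not measure agreement between replicates. All 34 genes of the IDR list had a summit in each replicate, which is no separate evidence because that list was made from the replicates. Counts by role, below, come from small lists and are to be read beside these shares, since at 13.1% a list of 13 genes would hold fewer than 2 with an IDR summit.

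Replicate ranks given for a cluster are those of the strongest peak within 1000 bp of its hairpins. At 24 of the 25 clusters this peak lay within 208 bp of the IDR summit in every replicate, and mir-4962 in replicate 3 was the exception. Ranks given for peaks outside the IDR list are those of the strongest replicate summit within 250 bp of the pooled summit, except at mir-8.

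The early zygotic mir-309 cluster had the strongest peak at any miRNA gene. Its 8 hairpins (mir-309, mir-3, mir-286, mir-4, mir-5, mir-6-1, mir-6-2 and mir-6-3) lie on the minus strand of chromosome arm 2R at 19660716 to 19661774, inside the noncoding gene lncRNA:CR44504, and are known for the clearance of maternal messenger RNAs. In replicates 1, 2 and 3 the peak ranked 62, 75 and 67, with signals of 486, 869 and 1070 on the scales of those lists. It ranked 63 in the IDR list with a signal of 2420. The replicates therefore placed it almost alike, with ranks that differed by a factor of 1.21. Its summit lay on the 5′ side of the whole cluster, 232 bp before mir-309, 159 bp upstream of the start of lncRNA:CR44504 and 430 bp from the divergent start of CG11018.

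Along the mir-309 cluster, distance from that summit decided which hairpins were counted. The first 6 genes fell within 1000 bp, up to mir-6-1 at 922 bp, while mir-6-2 at 1064 bp and mir-6-3 at 1211 bp fell outside. A second IDR summit in the same interval lay 447 bp from mir-309, with a signal of 358 and a rank of 3812. The last pair also had a weaker summit of their own, inside mir-6-3, which was in the pooled list at rank 5412 with a signal of 277. That peak ranked 3884, 4339 and 9006 in replicates 1, 2 and 3 and was not in the IDR list. Each of the 8 genes had a summit in all 3 replicates.

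The seed of mir-6-1, AUCACAG, is that of the mir-2 family, whose members are known to repress pro-apoptotic genes such as reaper and grim. Outside the mir-309 cluster, 3 of 10 family genes had an IDR summit, 8 had a pooled summit and 7 had one in all 3 replicates. The 3 were mir-13b-1, mir-13a and mir-2c, which lie together on the minus strand of 3R at 15417408 to 15417845 in lncRNA:CR45911. They shared 1 peak, which ranked 610, 840 and 797 in replicates 1, 2 and 3 and 805 in the IDR list, with an IDR signal of 897. Its summit was 423 bp on the 5′ side of mir-2c, and it was 2106 bp downstream of the nearest start of lncRNA:CR45911. A separate IDR peak past the limit had its summit at -2378 bp from this summit. It lay between starts of lncRNA:CR45911 at -2442 and -2106 bp, and every replicate had a peak there. This cluster was thus among the better placed miRNA peaks in every replicate.

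The other mir-2 family genes had weaker peaks or none. The peak near mir-11, in an intron of the cell cycle factor gene E2f1, ranked 6999 in the pooled list and 10109, 11024 and 4782 in the replicates. The peak near mir-308, in an intron of the ribosomal protein gene RpS23, ranked 8850 in the pooled list and 4528, 9308 and 8209 in the replicates. In the EGF receptor ligand gene spi, mir-2a-1 and mir-2a-2 shared a peak of pooled rank 16145, and mir-2b-2 had one of rank 23474. Neither mir-2b-1 in Btk nor mir-13b-2 in CCT2 had a pooled summit within 1000 bp. The mature strands of mir-13b-1 and mir-13b-2 are the same sequence, so the same mature miRNA has a locus with an IDR peak and a locus without.

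**Figure D2:**
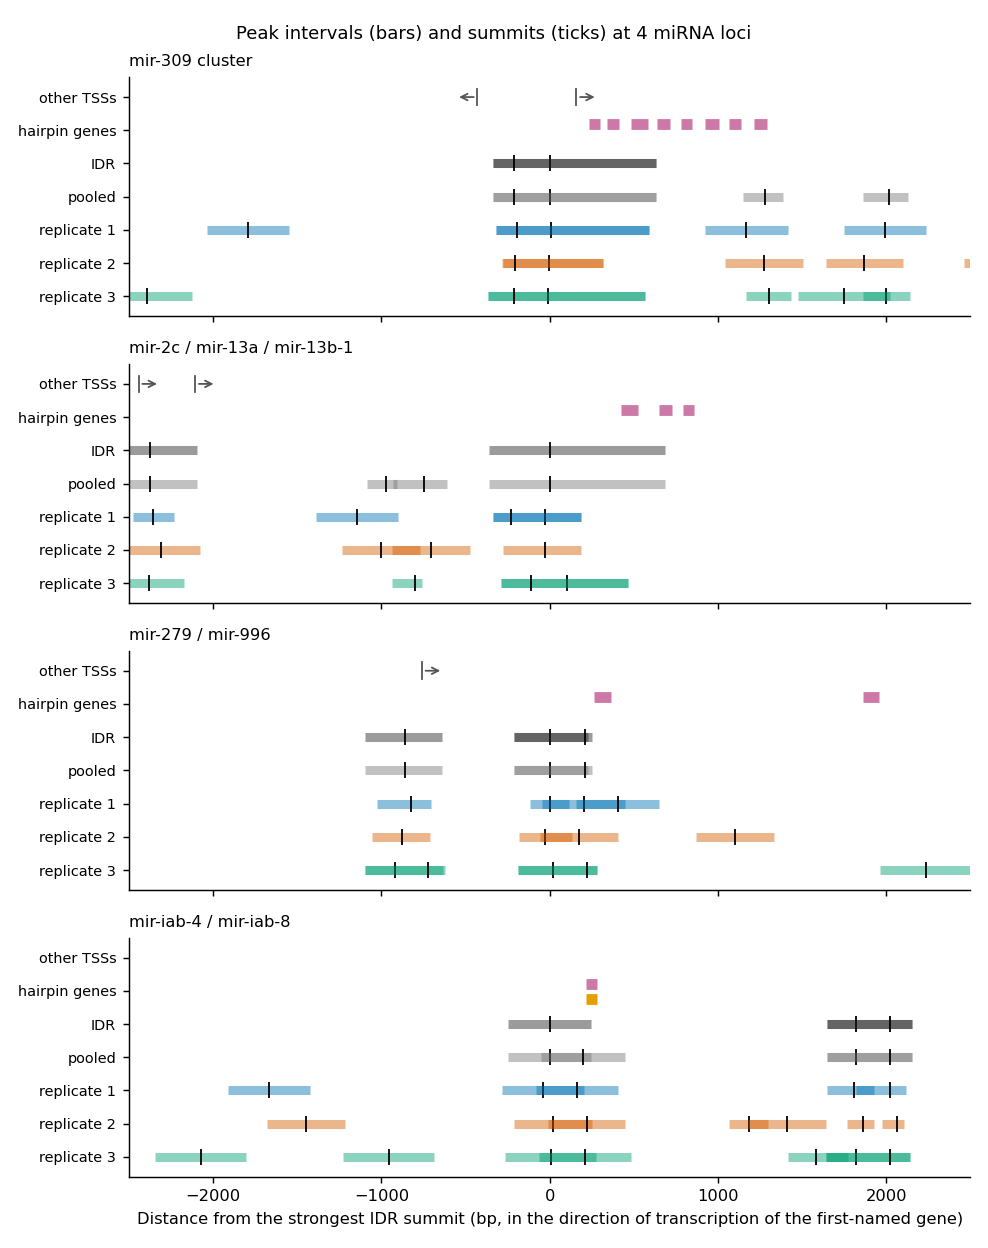
Peak intervals (bars) and summits (ticks) in the 5 lists around 4 miRNA loci. Distances in bp are from the strongest IDR summit within 1000 bp of a hairpin. Hairpin genes are pink, or orange where on the opposite strand, and arrows are start sites of other genes. At the mir-309 and mir-2c clusters the hairpins all lie on the 3′ side of the summit, from 232 bp and 423 bp onward. Peaks of all 3 replicates overlap the IDR interval of that summit at each locus.

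Of 12 listed sense organ and nervous system miRNAs, mir-279 was the single gene with an IDR summit, while 6 had a pooled summit and 3 had one in all 3 replicates. In flies mir-279 is known for restricting the formation of CO2-sensing neurons. It lies on the plus strand of 3R in lncRNA:CR31044, and its peak ranked 2441, 843 and 1093 in replicates 1, 2 and 3 and 1117 in the IDR list, with an IDR signal of 762. Replicate 1 placed it lower than the other replicates, by a factor of 2.90 between the extremes. Within 1000 bp of mir-279, the strongest summit was 264 bp on the 5′ side and a second summit of signal 326 was 54 bp away. A further IDR peak lay past the limit on the same side. Its summit was at -862 bp from the 264-bp summit, beside the start of lncRNA:CR31044 at -759 bp. The cluster partner mir-996, which has the same seed, lay 1129 bp from the nearest IDR summit and had no pooled summit within 1000 bp. Both genes share their seed, GACUAGA, with mir-286 of the mir-309 cluster, so this seed had IDR peaks at both of its loci.

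The remaining listed nerve genes had weaker peaks or none. Near mir-7, in an intron of HnRNP-K, the pooled peak ranked 7542, with replicate ranks of 5326, 4336 and 21258. Near mir-9a, which is known to limit the number of sense organ precursors, it ranked 11925, with replicate ranks of 7866, 15144 and 11235. Near mir-124, which marks the nervous system, it ranked 12874 in the pool with no summit within reach in any replicate.

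The Hox complex miRNAs mir-iab-4 and mir-iab-8 come from opposite strands of the same 68-bp stretch of the bithorax complex and are known to repress the Hox gene Ubx. Their hairpins lie on 3R at 16856275 to 16856342. They shared a peak that ranked 2076, 1915 and 2624 in replicates 1, 2 and 3 and 2082 in the IDR list, with an IDR signal of 536. The 3 ranks were within a factor of 1.37. The summit was 216 bp from the hairpin, on the 5′ side of mir-iab-4 and on the 3′ side of mir-iab-8, inside lncRNA:iab4, lncRNA:iab8 and MSAmiP. The nearest annotated start of another gene, that of lncRNA:iab4, was 5821 bp away. A further IDR interval lay past the 1000-bp limit on the 3′ side of mir-iab-4, with summits 1821 and 2021 bp from the shared summit. The other Hox complex genes, mir-993 and mir-10, had pooled peaks of rank 20509 and 28721 and were each without a summit in at least 1 replicate. An IDR summit lay 1143 bp from mir-10, just past the limit, whereas the nearest to mir-993 was 13243 bp away.

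A peak beside mir-92a ranked 2445, 918 and 880 in replicates 1, 2 and 3 and 1047 in the IDR list, with an IDR signal of 789. This gene is known for a role in neural stem cells but was not on the nervous system list above. It lies on the plus strand of 3R at 25646506 to 25646600 in an intron of jigr1. Its summit was 416 bp on the 3′ side and 230 bp upstream of a start of jigr1. The seed AUUGCAC is shared by 6 genes, and of these only mir-92a had an IDR summit. The partner mir-92b, in an exon of a transcript of the same host, had a pooled peak of rank 22913, and mir-310, mir-311, mir-312 and mir-313 shared a pooled peak of rank 5641.

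The pair mir-281-2 and mir-281-1, which share a seed and lie in an intron of the ornithine decarboxylase antizyme gene Oda, had a peak 543 bp on the 5′ side of mir-281-1 and 280 bp downstream of a start of Oda. It ranked 516, 1018 and 2042 in replicates 1, 2 and 3 and 1121 in the IDR list. The replicate ranks differed by a factor of 3.96. Among clusters with an IDR summit, this spread was exceeded only at the mir-4962 summit described next, where the factor was 4.35.

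Hairpins outside the role groups, for which no role is given here, complete the 15 clusters with the strongest IDR peaks. The peak at mir-9388, on 3L outside other genes, ranked 132, 275 and 220 in replicates 1, 2 and 3 and 212 in the IDR list, with a signal of 1572. Its summit was 179 bp on the 3′ side and 271 bp upstream of the start of Mes2. The peak at mir-9374, in an exon of a transcript of the nuclear receptor gene Hr39, ranked 471, 551 and 424 in the replicates and 458 in the IDR list, with a signal of 1173. At mir-4962, in an intron of the Tousled-like kinase gene Tlk, the interval was 3698 bp wide and held a summit inside the hairpin, with an IDR signal of 1102, and a stronger summit 777 bp on the 3′ side, with a signal of 1148. The stronger summit ranked 478 in the IDR list and 256, 409 and 1114 in the replicates. In replicate 3 the strongest summit was instead the one inside the hairpin, at rank 715.

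The other 6 of these hairpins ranked between 1111 and 2221 in the IDR list. The peak near mir-4973 ranked 1255, 911 and 1538 in the replicates and lay 249 bp upstream of lncRNA:CR45347. The peaks near mir-4968 and mir-4912 ranked 1152 and 1495 in the IDR list and lay in the host genes Mob2, which encodes a kinase regulator, and Fnta, which encodes a farnesyltransferase subunit. The peak near mir-980 ranked 1841, 1362 and 1911 in the replicates and lay 135 bp from a start of ewg, which encodes a transcription factor. Near mir-4975 and mir-4981 the IDR ranks were 2147 and 2221, and the replicate ranks of mir-4981 differed by a factor of 3.04. The seed AGCUGCC occurs in the 5′ arm of mir-4968 and the 3′ arm of mir-980 and in no other gene, and both loci had an IDR peak. With the mir-2 and mir-279 seeds it was 1 of 3 seeds, of 56 at genes in the IDR list, that had IDR peaks at separate clusters. A seed found at a single locus could not have them, so fewer than 56 seeds could. The seeds of mir-92a, of mir-3 and mir-309, and of the mir-2c 5′ arm also occur at 2 or more loci, but had an IDR peak at only 1.

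**Figure D3:**
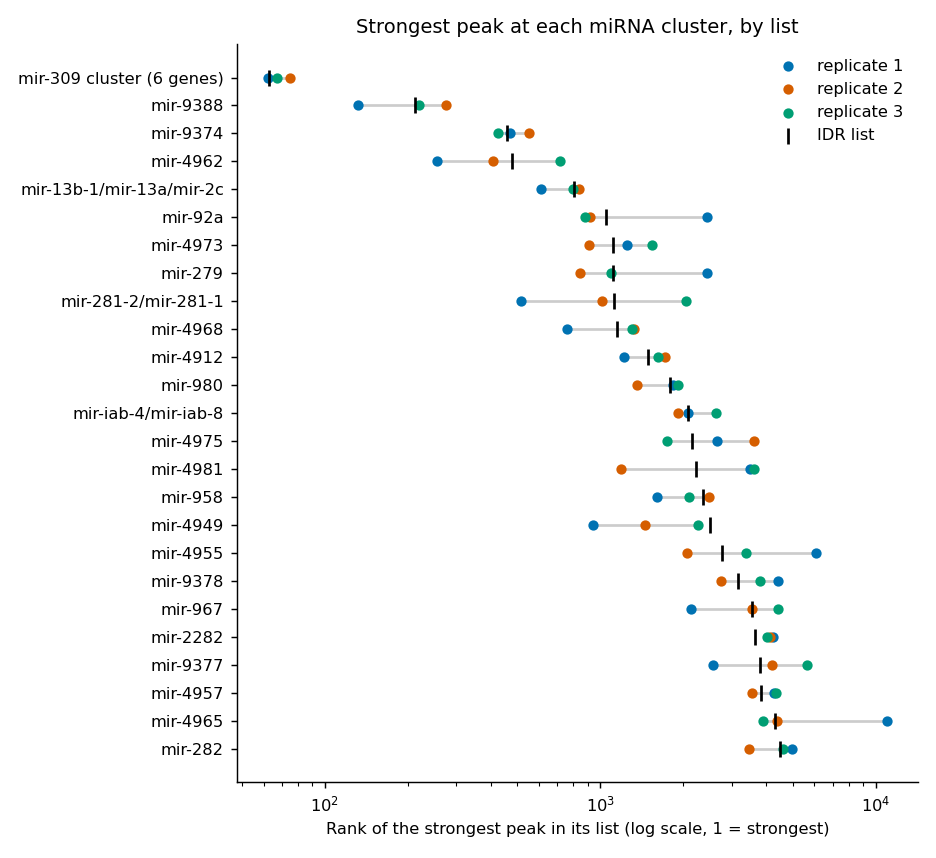
Rank of the strongest peak at each of the 25 miRNA clusters in the 3 replicate lists (points) and the IDR list (ticks), on a log axis on which 1 is the strongest. For mir-4962 the replicate 3 point is the summit inside the hairpin. The mir-309 cluster ranks between 62 and 75 in every replicate, whereas mir-4965 ranks 11044 in replicate 1 and 3909 in replicate 3.

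The last 10 clusters had IDR ranks from 2354 to 4485. They were mir-958, mir-4949 in the ATP synthase subunit gene ATPsynC, mir-4955 in the perlecan gene trol, mir-9378, mir-967 in bun, mir-2282 in the receptor tyrosine kinase inhibitor gene sty, mir-9377 in Tis11, mir-4957 on the strand opposite to the topoisomerase gene Top1, mir-4965 in the nucleoporin gene Nup153, and mir-282. The peak at mir-4965 ranked 11044, 4368 and 3909 in replicates 1, 2 and 3, and that at mir-4955 ranked 6089, 2066 and 3394. In both cases replicate 1 was the lowest and fell outside its strongest 5049 peaks. The peak at mir-9377 ranked 2561, 4224 and 5652, and fell outside that limit in replicate 3.

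Across the 25 clusters, replicate ranks of the summit that matched the IDR summit lay within a factor of 2 at 13 and differed by a factor above 3 at 3, namely mir-4962, the mir-281 pair and mir-4981. The strongest peak was overlapped, by at least 50% of either peak, by a peak among the strongest 5049 of every replicate at 22 clusters (88.0%), and of 2 replicates at the other 3. Of all IDR peaks, 71.2% were matched in every replicate. That share includes weaker summits, whereas the share for clusters takes only the strongest peak of each, so the sets are unlike. Of the 34 genes, 31 had a summit among the strongest 5049 peaks of all 3 replicates, 12 among the strongest 1000 and 7 among the strongest 500.

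The strongest summit was on the 5′ side of the nearest hairpin at 16 clusters, on the 3′ side at 8 and inside it at 1, with a median distance of 423 bp. Counted by gene, 24 had it on the 5′ side, 9 on the 3′ side and 1, mir-9377, inside. Many of these summits were also near the start of another gene. At 11 clusters (44.0%) the summit was within 500 bp of the start of a protein-coding gene, and of all IDR summits 42.6% were. Of 23 clusters with a host or overlapping gene, 12 had the summit within 500 bp of a start of that gene. A peak that belongs to the hairpin and a peak of the neighbouring start site cannot be told apart at these clusters. The closest were mir-958, 16 bp from a start of Jhbp6, mir-4949, 28 bp from a start of ATPsynC, and mir-4957, 79 bp from a start of Top1.

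**Figure D4:**
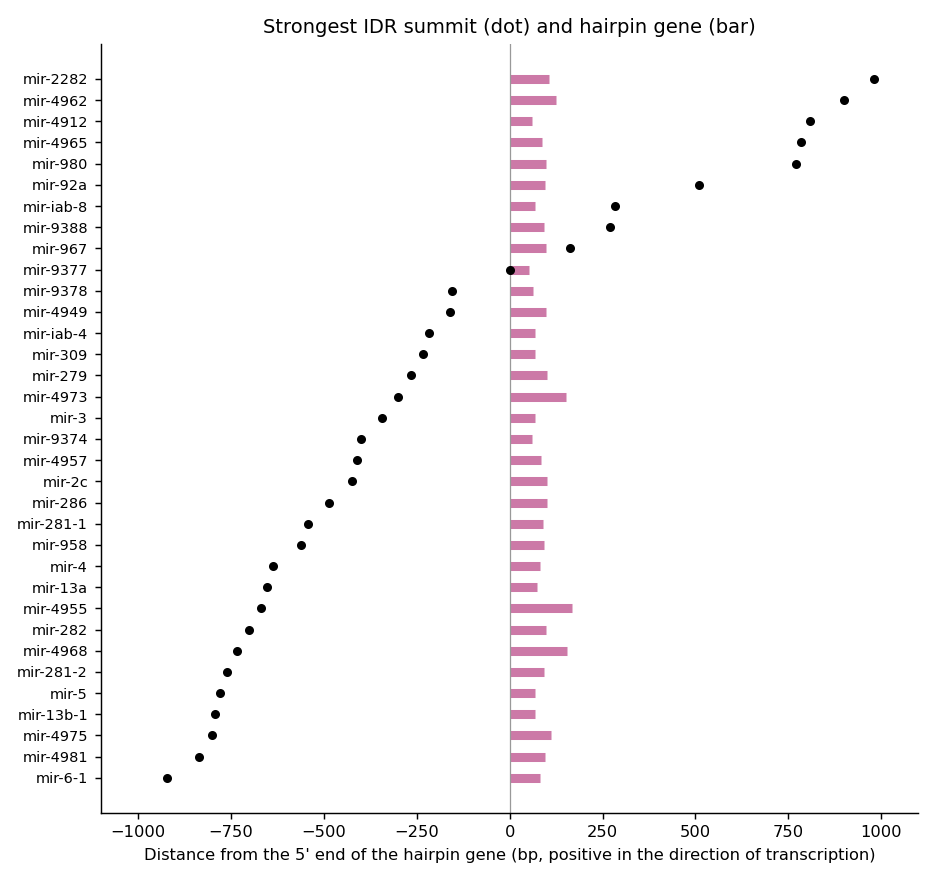
Strongest IDR summit (dots) relative to the hairpin gene (pink bars) for the 34 miRNA genes, in bp from the 5′ end of the hairpin, positive in the direction of transcription. Dots lie to the left for 24 genes and to the right for 9, and at mir-9377 the dot lies on the hairpin.

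At mir-9377, on the plus strand of X in an intron of the RNA-binding protein gene Tis11, the IDR summit fell on the first base of the hairpin. It is printed below from the RefSeq copy of Release 6, plus strand, as the 201 bases centred on the summit with the hairpin in capitals, because it is the only hairpin that holds its own strongest summit. The nearest start of Tis11 was 4683 bp away. The hairpin is pyrimidine-rich on its 5′ arm and purine-rich on its 3′ arm.
mir-9377 window, chrX:12665117-12665317: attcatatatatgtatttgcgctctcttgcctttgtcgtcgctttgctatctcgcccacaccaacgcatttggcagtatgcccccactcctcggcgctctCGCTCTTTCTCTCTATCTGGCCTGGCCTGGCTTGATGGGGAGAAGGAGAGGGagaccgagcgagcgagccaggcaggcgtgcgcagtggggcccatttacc

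Motifs of early embryo and promoter factors were counted in such 201-bp windows at the strongest summit of each cluster, on both strands. The GAGA factor letters GAGAG were found at 11 of 25 clusters (44.0%), in 35.3% of all 5049 IDR windows and in 23.9% of windows 1000 bp from an IDR summit. The letters CACATG, an E-box form bound by Twist, were found at 5 (20.0%), in 12.8% and in 8.93%. The BEAF-32 letters CGATA, which overlap the DREF motif, were found at 4 (16.0%), in 30.6% and in 22.7%. The DREF letters TATCGATA were found only at mir-980 and the M1BP letters GGTCACACT only at mir-4957, and occurred in 2.08% and 1.53% of all IDR windows. The Zelda letters CAGGTAG were at none of the 25, the mir-309 window included, and in 5.94% of all IDR windows. The Dorsal motif was at none of the 25 and in 0.792% of all IDR windows. With 25 windows each count is coarse, and a match is a description of letters, not a site.

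The windows of 4 clusters are printed from the plus strand, with motif letters of either strand in capitals. The windows of mir-4955 and mir-4973 hold 7 and 5 GAGA matches, some of which overlap, all as CTCTC on the printed strand. These were the highest counts, and the mir-967 window also held 5. The window of the mir-2 family cluster holds 1. That of mir-980 holds the DREF palindrome, which counts as a CGATA match on each strand, and a separate CGATA.
mir-13b-1, mir-13a and mir-2c window, chr3R:15418168-15418368: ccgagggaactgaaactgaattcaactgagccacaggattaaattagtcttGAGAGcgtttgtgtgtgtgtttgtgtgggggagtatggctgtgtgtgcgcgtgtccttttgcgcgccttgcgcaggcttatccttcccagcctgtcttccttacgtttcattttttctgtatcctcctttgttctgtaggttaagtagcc
mir-4973 window, chr2L:20561898-20562098: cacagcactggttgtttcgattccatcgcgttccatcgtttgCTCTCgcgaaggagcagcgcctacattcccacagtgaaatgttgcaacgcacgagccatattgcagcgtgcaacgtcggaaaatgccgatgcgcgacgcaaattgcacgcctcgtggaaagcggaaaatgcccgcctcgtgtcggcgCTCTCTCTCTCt
mir-4955 window, chrX:2545477-2545677: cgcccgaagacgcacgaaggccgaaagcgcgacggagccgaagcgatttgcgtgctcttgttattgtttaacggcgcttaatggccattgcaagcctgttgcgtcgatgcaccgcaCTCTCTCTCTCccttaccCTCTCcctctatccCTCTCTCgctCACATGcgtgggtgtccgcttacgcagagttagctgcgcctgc
mir-980 window, chrX:279399-279599: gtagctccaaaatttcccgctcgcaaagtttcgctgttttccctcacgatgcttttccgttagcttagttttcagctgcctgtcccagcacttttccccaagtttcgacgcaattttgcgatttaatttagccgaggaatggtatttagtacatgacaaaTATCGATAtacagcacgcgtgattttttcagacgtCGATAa

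Position relative to other genes differed among the hairpins. Of 47 hairpins inside a noncoding gene on the same strand, 14 (29.8%) had an IDR summit, with a 95% Wilson interval of 18.7 to 44.0%. These 14 include 6 of the mir-309 cluster, and without that cluster the count was 8 of 39, or 20.5%. The other groups gave 13 of 100 (13.0%) for introns of protein-coding genes on the same strand, 3 of 38 (7.89%) for exons of such genes, 2 of 27 (7.41%) for hairpins that overlapped only a gene on the opposite strand and 2 of 48 (4.17%) outside genes. By clusters the noncoding hosts gave 7 of 33, the mir-309 cluster included, and introns 12 of 89. Exons gave 3 of 38 clusters, the opposite strand only 2 of 19 and positions outside genes 2 of 31. By arm the share ran from 5 of 56 (8.93%) on 2L to 10 of 55 (18.2%) on 2R, where 6 of the 10 genes belong to the mir-309 cluster. Counted by clusters the order was reversed, with 5 of 41 on 2L and 4 of 40 on 2R. Neither of the 2 genes on chromosome 4 had an IDR summit.

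Several well-studied groups had no IDR summit. None of the 13 growth, metabolism and germline genes had one. A pooled summit was present at 8 (61.5%) and a summit in all 3 replicates at 6 (46.2%). These shares lay above the 46.2% and 33.1% of all miRNA genes. Over all genes, which include longer gene models, the shares were 61.4% and 49.7%. With 13 genes each share is coarse. Among these 13 genes mir-8, known for control of body growth, came closest. Its nearest IDR summit was 1024 bp away, just past the limit. A separate pooled summit 803 bp on the 5′ side ranked 5242, the strongest pooled peak at any miRNA gene outside the IDR list. The strongest replicate summits within 1000 bp ranked 15242, 5078 and 4324 in replicates 1, 2 and 3. Replicate 1 had a stronger summit of rank 6678, and replicate 2 of rank 4176, but these lay past the limit, 237 and 202 bp from the pooled summit. The bantam gene mir-ban, which promotes growth and limits cell death, had a pooled peak of rank 12970. The peak near mir-14, known for control of cell death and fat metabolism, ranked 6651, with replicate ranks of 7022, 6724 and 10200.

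The muscle gene mir-1 had a pooled peak of rank 16258 and no summit in replicate 1, and mir-133 had no summit in any list. The 3 genes of the let-7 complex, mir-100, mir-let7 and mir-125, which act in developmental timing at late stages, had no summit within 1000 bp in any of the 5 lists. Their nearest IDR summits lay 11772 to 12663 bp away. Of 6 listed genes of the mir-310 cluster, which is known from the germ line, mir-310, mir-311, mir-312 and mir-313 shared the pooled peak of rank 5641, and all 6 had a summit in each replicate. By the 2000-bp rule the cluster also holds mir-2498, which was not on the list and had a pooled peak of rank 12806. The shared peak ranked 4747, 5495 and 6439 in replicates 1, 2 and 3 and was not in the IDR list.

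Of 19 genes in clusters known from the testis, 8 (42.1%) had a pooled summit, beside 46.2% of all miRNA genes. Among the 8 were mir-959 and mir-960 at rank 23698, and mir-961 beside them had none. Of 15 mirtrons, which are short introns that fold into hairpins after splicing, 4 (26.7%) had a pooled summit. The peak of mir-1005 ranked 10905 and that of mir-1004 ranked 16729, and mir-1003 had none. Over all miRNA genes, the 86 with a pooled summit only had a median pooled rank of 15742 and a range from 5242 to 29586. Among clusters with no IDR summit, the strongest pooled peak after those of mir-8 and the mir-310 cluster was at mir-4911 in an intron of ND-23, with a pooled rank of 5737 and replicate ranks of 5655, 6516 and 6402.

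**Figure D5:**
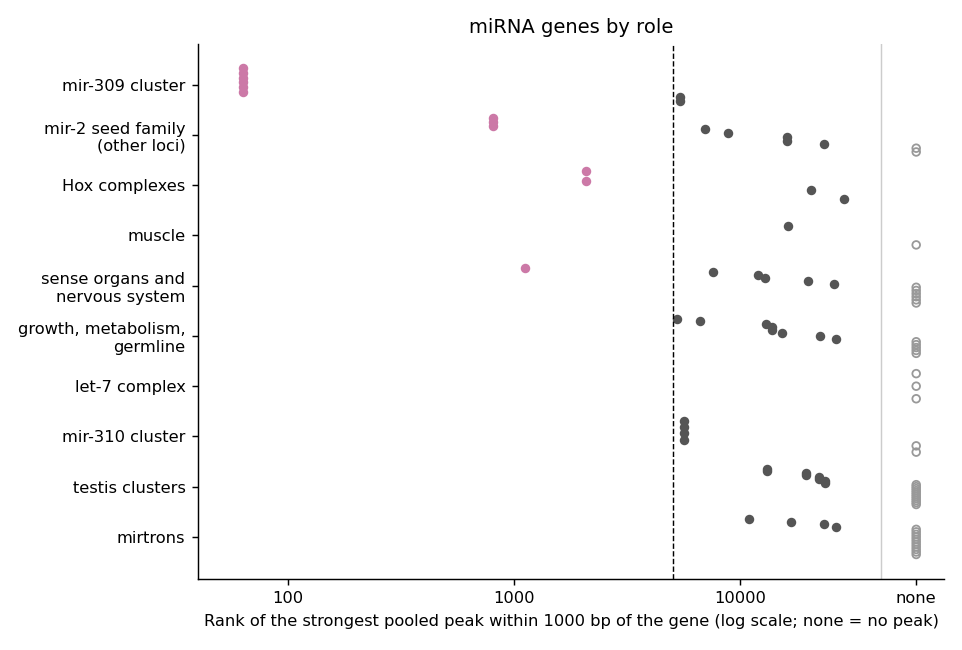
Rank of the strongest pooled peak within 1000 bp of each miRNA gene on the role lists, on a log axis, by role. Pink points are genes in the IDR list, dark points have a pooled peak only, open points have none, and the dashed line marks rank 5049. The pink points are 6 genes of the mir-309 cluster, 3 of the mir-2 family, 2 Hox genes and mir-279.

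At the 1000-bp limit itself, the members just inside were mir-4975 at 800 bp, mir-4981 at 835 bp, mir-2282 at 874 bp and mir-6-1 at 922 bp. Those just outside were mir-8 at 1024 bp, mir-4978 at 1039 bp, mir-6-2 at 1064 bp and mir-996 at 1129 bp.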

How the data were processed

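Chromatin immunoprecipitation with an anti-GFP antibody was measured in 3 biological replicates of 1 group. Per the labels, chromatin was sonicated to 200 to 800 bp. The authors deposited peak lists on dm6 with a signal value, a −log10 q value and a summit for each peak. The labels name CG15479 in the antibody field and anti-GFP elsewhere. The caller and aligner were not given in the sources used here. Deposited text files trace a replicate list to that replicate's alignment plus the common control, the pooled list to all 3 alignments plus the control, and the IDR list to these lists. All IDR rows carry the same −log10 q, so peaks were ranked by deposited signal. Read depth being unknown, shares carry Wilson intervals over genes.

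Summits were assigned to gene models of Ensembl release 115 within 1000 bp, without transposable elements and mature-product entries, with Python 3.11.15, pandas 2.3.3 and numpy 2.4.6. A replicate summit was taken as the same peak when it lay within 250 bp. The assignment was tested on simulated data. Sequences came from RefSeq Release 6. The named genes are the 15 clusters with the strongest IDR peaks, members of 10 role groups with an IDR summit, up to 3 members of groups without, the members nearest the limit and the 3 strongest pooled-only clusters; mir-7, mir-9a and mir-124, mir-92b, mir-10 and mir-993, and the mir-2 family genes without an IDR summit were added for contrast with their group or seed. Members and lists were chosen with earlier results of these data known. After the files were opened, mir-bft replaced an older symbol and mir-let7 and mir-ban were added to their groups. Alternatives were other distances, interval overlap, the stronger IDR peaks, other cluster gaps and leaving out each replicate.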

Additional observations from a re-analysis of the deposited data

How the results depend on the processing

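Counts of miRNA genes depended on the distance allowed and on how many replicate peaks were used. Within 500 bp in place of 1000 bp, 17 of the 34 genes and 14 of the 25 clusters had an IDR summit, and 78 of 120 genes had a pooled summit. At that distance the IDR share was 6.54% of miRNA genes and 18.4% of all genes. Within 2000 bp there were 48 genes in 35 clusters, with shares of 18.5% and 26.5%. The shares at both distances are by gene model, so gene length enters them, and shares by 5′ end were taken only at 1000 bp. With the strongest 5049 peaks of each replicate list, 31 genes in place of 86 had a summit in all 3. Counting intervals in place of summits gave 40 genes, and the stronger 2524 IDR peaks gave 26. Joining genes under 1000 or 10000 bp apart left 25 clusters. Requiring a match in the remaining replicates when each replicate was left out gave 31 to 33 genes and 22 to 24 clusters, and mir-9377, mir-4955 and mir-4965 were the genes lost in at least 1 of these. The count of genes with a summit in every replicate list was 94 to 98 when a list was left out. No paired analysis was possible because there is a single group. Depth, the control and the scale of the signal limit all peak strengths, and hairpin and host promoter peaks cannot be separated by position alone.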
